A study of Mus musculus with 6 samples.

Results

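Excitatory neurons of the forebrain are built and kept by a small group of DNA-binding proteins, and 9 of the genes that encode them were followed here after the loss of CBP: Neurod1, Neurod2 and Neurod6, Mef2a, Mef2c and Mef2d, Bcl11b, Zbtb20 and Tbr1. The members were a named list, chosen by their role in neuronal identity with earlier results of these data known, and all 9 were found by gene symbol among the 55471 genes of the count table. The libraries held hippocampal RNA from mice aged 3 to 6 months on a C57BL/6 background, with 3 libraries from Control animals and 3 from CBP-ifKO animals. In CBP-ifKO mice the floxed Crebbp gene, which encodes the histone acetyltransferase CBP, was recombined by a tamoxifen-inducible Cre (creERT2) under the Camk2a promoter, which is active in excitatory neurons of the forebrain and not in the other cells of the tissue. Both groups received 5 doses of tamoxifen (20 mg/mL) by the intragastric route. Each library pooled the hippocampi of several female mice. The labels differ on the controls: the protocol has them as littermates without creERT2, while their description field names the driver.

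The NeuroD proteins are basic helix-loop-helix factors that bind E-boxes together with the widely expressed E-proteins and drive neuronal differentiation, and Neurod2 and Neurod6 stay on in mature pyramidal neurons. The MEF2 proteins bind A/T-rich sites through a MADS domain, are held in check by class IIa histone deacetylases and are released by calcium signals through calcineurin and calmodulin-dependent kinases, with synapse number and activity-dependent transcription among their best known outputs. Bcl11b (also called CTIP2) and Zbtb20 are zinc finger factors of hippocampal pyramidal and granule neurons, and Tbr1 is a T-box factor of deep-layer cortical and subicular projection neurons. CBP is a coactivator that such factors recruit to enhancers and promoters.

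The promoters of 4 members are shown because Mef2d was the member that passed the test, Mef2a is its paralogue that did not, and the estimates of Neurod2 and Neurod6 had opposite signs. RefSeq windows were matched for 9 of the 9 genes (11 windows of 300 bases, GRCm38.p6). The stretch printed for each gene runs from 200 bases before the annotated start to 10 bases after it, 5′ to 3′ on the strand of the gene, with motif matches in capitals. Mef2d lies at chr3:88142172-88142381 on the plus strand, Mef2a at chr7:67372849-67373058, Neurod2 at chr11:98329636-98329845 and Neurod6 at chr6:55681254-55681463, the last 3 on the minus strand.
Mef2d: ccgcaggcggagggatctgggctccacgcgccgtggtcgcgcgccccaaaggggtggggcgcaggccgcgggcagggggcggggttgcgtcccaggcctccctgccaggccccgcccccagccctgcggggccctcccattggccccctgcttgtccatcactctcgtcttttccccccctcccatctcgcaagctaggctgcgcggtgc
Mef2a: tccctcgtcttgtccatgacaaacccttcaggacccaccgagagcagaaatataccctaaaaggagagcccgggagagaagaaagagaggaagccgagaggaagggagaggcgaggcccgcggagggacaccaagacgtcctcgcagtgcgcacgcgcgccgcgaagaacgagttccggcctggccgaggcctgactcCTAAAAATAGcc
Neurod2: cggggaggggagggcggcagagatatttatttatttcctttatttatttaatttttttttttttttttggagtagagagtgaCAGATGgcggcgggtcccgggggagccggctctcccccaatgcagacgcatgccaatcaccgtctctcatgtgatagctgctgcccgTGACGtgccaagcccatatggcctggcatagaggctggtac
Neurod6: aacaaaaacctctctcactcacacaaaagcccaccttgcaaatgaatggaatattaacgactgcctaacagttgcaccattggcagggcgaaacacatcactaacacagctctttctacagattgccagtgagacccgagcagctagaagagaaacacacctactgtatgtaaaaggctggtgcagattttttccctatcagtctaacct

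Motifs were searched as exact letters on both strands of the full 300-base windows. The capitals in Mef2a mark a match to the MEF2 motif (CTA and TAG with any 4 bases between them) that begins 2 bases before the annotated start, a motif held by 3.69% of the 32851 windows of that length. As searched, the motif is looser than an A/T-rich site, since the 4 bases may include G or C. The 3.69% is the share for this looser pattern. In Neurod2 the capitals mark the E-box CAGATG, held by 17.2% of windows, and the shortened cAMP response element TGACG, held by 20.8%, which begins 31 bases before the start. The full cAMP response element TGACGTCA, which is in 1.79% of windows, was in 0 of the 11 windows of the members, and the Mef2d and Neurod6 windows held no match to any motif searched (the others were the E-box CAGCTG, in 16.3% of windows, and the TATA box TATAAA, in 13.6%). The windows also differed in base composition. That of Mef2d was 72.0% G and C, above 93.5% of all windows, that of Neurod6 was 46.3% and the lowest, 1 of the 3 windows of Mef2c, was 35.7%, and the longest transcripts of the 9 genes ran from 40.8% (Mef2c) to 58.7% (Neurod2).

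Total counts per library ran from 10199008 to 14950257, and the least abundant member had at least 166 counts in every library. Levels are given as counts scaled to library size with TMM factors (CPM). Crebbp itself had a mean of 191 ± 30.1 CPM in Control (SD, n = 3) and of 98.4 ± 10.8 in CBP-ifKO (edgeR adjusted p 3.63e-05), while Ep300, the gene of its paralogue p300, did not pass the threshold (log2 fold change 0.18, adjusted p 0.321). Esr1, part of which is carried by the creERT2 transgene, lay between 5.65 and 6.29 CPM in the Control libraries and between 63.6 and 69.4 CPM in the others. By Esr1 the Control libraries match the protocol rather than the description field. The driver transgene therefore differs between the groups along with CBP, and their effects cannot be told apart. The defining markers of excitatory neurons were abundant, with Slc17a7 (the vesicular glutamate transporter VGLUT1) at a mean of 554 CPM (Control) and 538 CPM (CBP-ifKO; adjusted p 0.814, named after its values were seen). Of 10 such markers 2 fell past the threshold, where 4.99% of all genes tested fell. They were Nrgn, which encodes the postsynaptic calmodulin-binding protein neurogranin (-0.73, edgeR adjusted p 1.76e-04), and Baiap2, a gene of the postsynaptic scaffold (-0.35, 0.00266). In whole tissue, fewer cells of a type and less RNA per cell cannot be told apart.

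Of the 9 transcription factor genes, 1 passed the edgeR threshold (adjusted p under 0.05), and it was lower in CBP-ifKO. That gene was Mef2d, at 74.3% of its Control level. Across all 17981 genes tested, 6.39% passed the threshold, 4.99% lower and 1.4% higher, so that 1 of 9 is near the background. The other 8 did not pass, and for Neurod1, Mef2a, Mef2c and Zbtb20 the lower ends of the 95% intervals were between -16.6% and -9.78%. The lower end was -16.1% for Neurod6, -21.6% for Bcl11b and -32.1% for Tbr1, while the interval of Neurod2 lay above 0. The median log2 fold change of the 9 was -0.09, against -0.0033 for all genes tested.

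**Figure D1:**
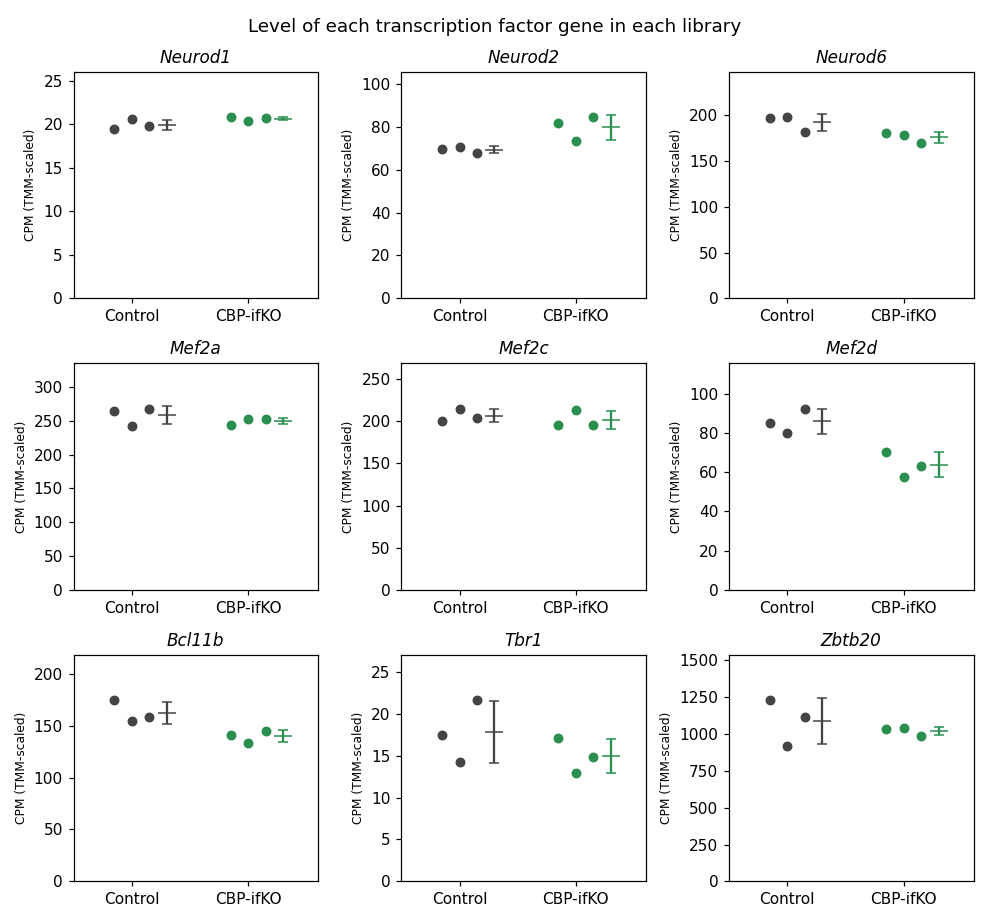
Level of each of the 9 transcription factor genes in each library, in TMM-scaled CPM on an axis that starts at 0; points are libraries, and the bar beside them is the mean ± SD (n = 3). Mef2d lies between 80.0 and 92.4 CPM in Control and between 57.7 and 70.5 CPM in CBP-ifKO, whereas the Mef2a and Mef2c points of the genotypes overlap.

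The MEF2 family was considered first. Mef2d (ENSMUSG00000001419, GRCm38 chromosome 3, 88142372 to 88172086, plus strand) encodes the MEF2 protein that is broadly expressed and that responds to neuronal activity in the adult brain. Its level was 85.2, 80.0 and 92.4 CPM in the Control libraries (replicates 1 to 3, an order used throughout) and 70.5, 57.7 and 63.4 CPM in the CBP-ifKO libraries. The groups were apart, with all 3 CBP-ifKO values the lower ones. Group means were 85.9 ± 6.22 and 63.9 ± 6.38 CPM (SD, n = 3), and the difference was -0.43 on the log2 scale with an SE of 0.080 (edgeR adjusted p 0.00377). Its 95% interval ran from -34.0% to -16.6%. Mef2d shares 8.87% of its exon bases with 1700113A16Rik on the other strand, a gene that was between 0.411 and 1.16 CPM in these libraries.

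Mef2a (chromosome 7, 67231163 to 67372858, minus strand), which encodes a MEF2 protein of differentiated neurons and muscle, was at 264, 243 and 268 CPM in Control and at 244, 253 and 252 CPM in CBP-ifKO. The groups overlapped, with an estimated difference of -0.05 in log2 units (SE 0.058, edgeR adjusted p 0.700). The interval ran from -11.1% to 5.27%. Mef2a shares 2.06% of its exon bases with Lysmd4 on the other strand.

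Mef2c (chromosome 13, 83504034 to 83667080, plus strand) encodes the MEF2 protein with the strongest links to cortical development and to intellectual disability. It was at 199.97, 215 and 204 CPM in Control and at 196, 214 and 196 CPM in CBP-ifKO. Here too the groups overlapped (estimate -0.03, SE 0.060, edgeR adjusted p 0.820), with an interval from -10.4% to 6.75%.

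To describe the make-up of the MEF2 family, the share of each gene in the summed level per length (CPM divided by exon length in kilobases, RPKM) was taken in each library. Mef2d made up 31.7%, 30.7% and 33.1% of the MEF2 sum in Control and 28.8%, 23.8% and 26.4% in CBP-ifKO. The mean difference was -5.49 percentage points, and the groups did not overlap. An exact two-sided permutation test over the 6 libraries gave p = 0.1, which is the smallest p that 3 against 3 libraries can give. The share of Mef2a went from 39.0% ± 1.04 to 42.0% ± 1.12 (SD, n = 3; p = 0.1, exact permutation test) and that of Mef2c from 29.2% ± 1.92 to 31.7% ± 1.67 (p = 0.3, exact permutation test). The shares of a library add up to the whole, so they are not independent, and a lower Mef2d share raises the others. The level of Mef2a itself was not higher (estimate -0.05). As the lower Mef2d level comes from the same libraries, its share is no separate support. The sum itself was between 43.6 and 46.7 RPKM in Control and between 40.2 and 40.9 RPKM in CBP-ifKO. Exon length sets these shares: with the longest transcript of each gene in place of all its exons, Mef2d made up 16.7% ± 0.76 in Control and 13.3% ± 1.48 in CBP-ifKO.

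None of the 3 NeuroD genes passed the threshold, and their estimates had both signs. Neurod2 (chromosome 11, 98325415 to 98329648, minus strand), a factor needed for the survival and synaptic maturation of excitatory neurons, was at 69.6, 70.6 and 67.6 CPM in Control and at 81.7, 73.2 and 84.4 CPM in CBP-ifKO. Its CBP-ifKO libraries were all above the Control libraries. The log2 fold change of 0.20 (SE 0.070, 95% interval from 3.72% to 27.4% higher) did not pass the threshold over all genes (edgeR adjusted p 0.102). It did so with scaling by library totals alone (0.25, adjusted p 0.0467) and when trends on GC content and gene length were removed (0.36, adjusted p 0.00289).

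Neurod6 (chromosome 6, 55677822 to 55681263, minus strand), a marker of pyramidal neurons from their birth into adulthood, had a level of 197, 198 and 181 CPM in Control and 180, 178 and 169 CPM in CBP-ifKO. The groups did not overlap, but the lowest Control library (181.2) and the highest CBP-ifKO library (180.35) were close. The estimate was -0.13 in log2 units (SE 0.060, edgeR adjusted p 0.232), and the 95% interval ran from -16.1% to -0.067%.

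Neurod1 (chromosome 2, 79452521 to 79456751, minus strand), which acts in the differentiation of granule neurons of the dentate gyrus, had the smallest difference of the 3. Its level was 19.4, 20.6 and 19.8 CPM in Control and 20.8, 20.4 and 20.7 CPM in CBP-ifKO, an estimate of 0.05 (SE 0.093, edgeR adjusted p 0.824). The groups overlapped, and the interval ran from -9.78% to 18.6%. Neurod1 shares 7.37% of its exon bases with Cerkl on the same strand (at most 5.76 CPM here) and 5.64% with Gm26755 on the other.

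Within the NeuroD family, Neurod6 held the largest share of the summed level per length in every library. It made up 75.8%, 75.4% and 74.5% in Control and 71.4%, 72.9% and 69.5% in CBP-ifKO. Neurod2 made up 18.3%, 18.4% and 19.0% in Control and 22.1%, 20.5% and 23.7% in CBP-ifKO. Both shares were without overlap between the genotypes, and each reached the smallest p that the exact permutation test allows here (p = 0.1, two-sided). Since a higher share of one gene lowers the others, these are not separate results. The differences were -3.96 percentage points for Neurod6, 3.53 for Neurod2 and 0.43 for Neurod1 (from 6.17% ± 0.27 to 6.60% ± 0.11, SD, n = 3). The sum of the 3 genes overlapped between the groups, with 113 to 122 RPKM in Control and 113 to 118 RPKM in CBP-ifKO.

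**Figure D2:**
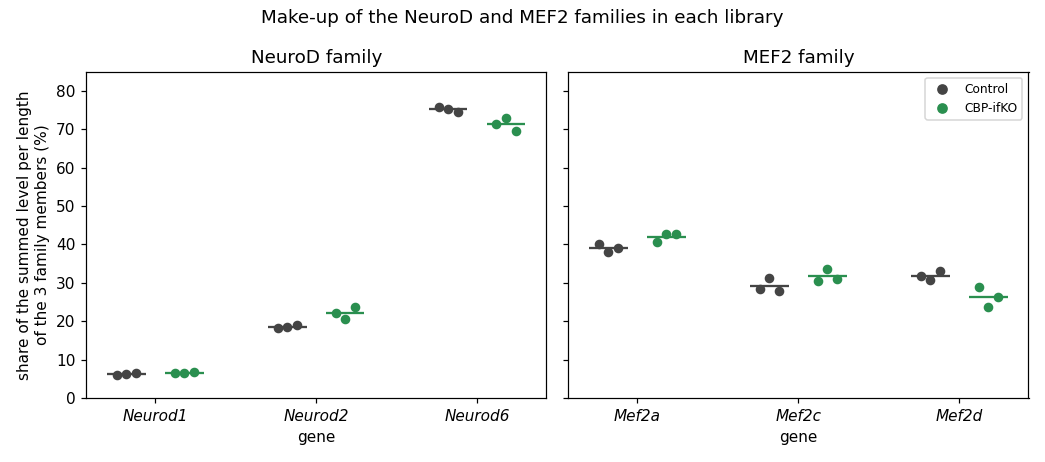
Share of each gene in the summed level per length of its family, in percent, for the NeuroD genes (left) and the MEF2 genes (right); points are libraries (dark, Control; green, CBP-ifKO) and lines are group means. The Mef2d share is between 30.7% and 33.1% in Control and between 23.8% and 28.8% in CBP-ifKO, and the Neurod2 share is higher in each CBP-ifKO library than in any Control library.

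Bcl11b (chromosome 12, 107910403 to 108003602, minus strand), which in the hippocampus marks CA1 pyramidal and dentate granule neurons and is also used by interneurons and striatal neurons, was just outside the threshold. It was at 174, 155 and 158 CPM in Control and at 141, 133 and 145 CPM in CBP-ifKO, with no overlap. The difference of -0.22 in log2 units had an SE of 0.064 (edgeR adjusted p 0.0557), and its interval ran from -21.6% to -5.38%. Bcl11b passed the threshold without Control replicate 2 (-0.24, adjusted p 0.0243), with robust dispersions (adjusted p 0.0428) and with no filter on low counts (0.0499), and over its alternatives the adjusted p ranged from 0.0202 to 0.217.

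Zbtb20 (chromosome 16, 42875881 to 43642602, plus strand), a repressor that specifies CA1 identity and is also expressed by astrocytes, was the most abundant member. Its level was 1230, 920 and 1115 CPM in Control and 1034, 1038 and 988 CPM in CBP-ifKO. Control replicate 2 was the lowest of the 6 libraries, and the groups overlapped (estimate -0.09, SE 0.079, edgeR adjusted p 0.551). The value rested on single Control libraries: leaving out replicate 2 gave -0.19 (adjusted p 0.0339), and leaving out replicate 1, the highest, gave 0.0033 (adjusted p 0.987). Zbtb20 shares 0.338% of its exon bases with Gm9968 on the other strand and 0.270% with Mir568 on the same strand.

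Tbr1 (chromosome 2, 61802930 to 61814114, plus strand) was the least abundant and the least precisely measured. It was at 17.5, 14.3 and 21.6 CPM in Control and at 17.1, 12.9 and 14.9 CPM in CBP-ifKO. The groups overlapped, and the log2 fold change of -0.25 had an SE of 0.14 (edgeR adjusted p 0.334), and the 95% interval ran from -32.1% to 3.55%. The estimate was -0.09 (adjusted p 0.829) with Control replicate 3 left out and -0.39 (adjusted p 0.0848) with Control replicate 2 left out.

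**Figure D3:**
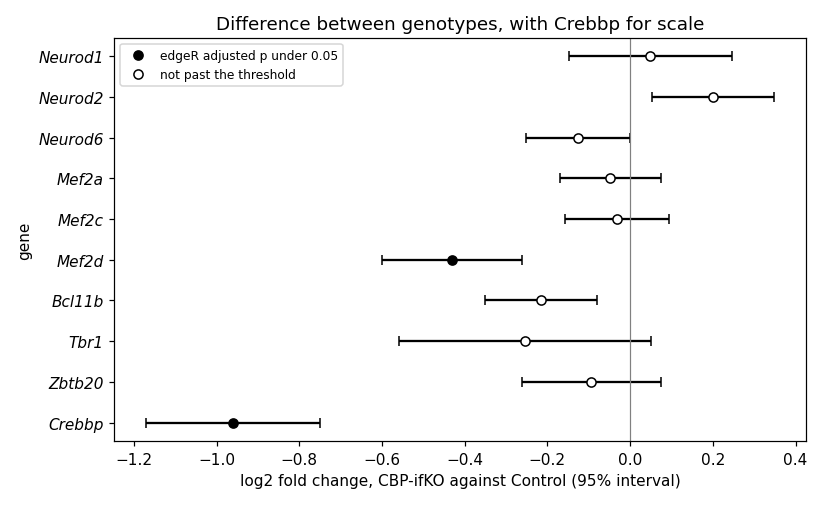
Log2 fold change (CBP-ifKO against Control) with its 95% interval for the 9 transcription factor genes, and for Crebbp as a scale; filled points passed the edgeR threshold. Mef2d, at -0.43, is the filled point among the 9, and the intervals of Neurod2 and Bcl11b lie on opposite sides of 0.

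Taking the members as a whole, 4 of 9 had groups that did not overlap (Mef2d, Bcl11b and Neurod6 lower, Neurod2 higher), where 25.6% of all genes tested did, 13.9% lower and 11.8% higher. The unadjusted p was under 0.05 for the same 4 genes, against 21.2% of all genes tested. In Control tissue the order of the levels per length began with Neurod6 (89.3 ± 4.38 RPKM, SD, n = 3), followed by Zbtb20 (35.4 ± 5.10), Neurod2 (22.0 ± 0.48), Bcl11b (20.0 ± 1.31), Mef2a (17.6 ± 0.92), Mef2d (14.4 ± 1.04), Mef2c (13.1 ± 0.49), Neurod1 (7.31 ± 0.22) and Tbr1 (3.24 ± 0.67). Among neighbours in this order, the ranges of Mef2d and Mef2c overlapped. In CBP-ifKO tissue Mef2c (12.8 ± 0.66 RPKM) stood above Mef2d (10.7 ± 1.07), and the ranges that overlapped were those of Bcl11b (17.2 ± 0.72) and Mef2a (17.0 ± 0.34). The order depends on the length used. Per longest transcript, Mef2a (46.7 ± 2.44) and Mef2c (32.9 ± 1.23) stood above Neurod2 in Control.

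The genes of the proteins that control MEF2 activity were examined next. Of 13 MEF2 regulator genes, 6 passed the edgeR threshold, all lower in CBP-ifKO (46.2%, against 6.39% of all genes tested), and the median over the list was -0.14 in log2 units. The SEs of these 6 ran from 0.053 (Ppp3r1) to 0.084 (Hdac5), against a median of 0.125 over all genes tested. An equal fold change therefore passed more readily in them than in most genes. Camk4, a nuclear calmodulin-dependent kinase, was at 73.1, 65.6 and 67.3 CPM in Control and at 48.4, 49.6 and 44.8 CPM in CBP-ifKO, a difference of -0.53 (SE 0.072, edgeR adjusted p 3.45e-04). Hdac5, a class IIa histone deacetylase that binds MEF2 and represses its targets, went from 80.2, 102 and 86.3 CPM to 67.3, 61.1 and 61.6 CPM (-0.50, SE 0.084, adjusted p 0.00158). Neither gene had any overlap between the groups.

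The other genes of this list that fell were Mapk14, which encodes the p38 kinase that phosphorylates MEF2 (-0.31, adjusted p 0.00924), and Ppp3r1, the regulatory subunit of calcineurin (-0.24, 0.0126), together with the class IIa deacetylases Hdac4 (-0.32, 0.0146) and Hdac9 (-0.31, 0.0277), both deacetylases named after their values were seen. The catalytic calcineurin subunits Ppp3ca (-0.06, adjusted p 0.582) and Ppp3cb (-0.01, 0.927), the calcineurin inhibitor Cabin1 (-0.04, 0.802) and Hdac7 (-0.14, 0.613) did not pass. Neither did Mapk7 (0.03, adjusted p 0.937), Camk1 (-0.0053, 0.984) or Carm1 (0.04, 0.878). Hdac4 shares 22.4% of its exon bases with Gm26720 on the other strand, and Ppp3r1 shares 14.3% with Wdr92 on the same strand. The count of 6 depended on single libraries and was 2 (Camk4 and Hdac5) without Control replicate 3 or CBP-ifKO replicate 3, whereas Camk4 and Hdac5 passed in every alternative run. With trends on GC content and gene length removed, the estimate for Hdac5 was -0.28 (adjusted p 0.0192).

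Genes reported as MEF2 targets in neurons were a further list. Of 15, 3 fell and 0 rose past the threshold, where 4.99% of all genes tested fell and 1.4% rose (median over the list -0.17, against -0.0033 for all genes). Among them, Bdnf, the neurotrophin gene, had a log2 fold change of -0.66 (edgeR adjusted p 2.51e-04) and Kcna4, a potassium channel subunit, one of -0.26 (0.0420). Homer1, a postsynaptic scaffold gene (0.04, adjusted p 0.738), and Arc, a gene for a protein of synaptic plasticity (-0.32, 0.241), did not pass, and both were named after their values were seen. Bdnf shares 14.4% of its exon bases with Gm45346 on the other strand.

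Among the partners and inhibitors of basic helix-loop-helix factors, 1 of 10 passed the threshold, which is near the 6.39% of all genes tested. This was Id2, which encodes a protein that sequesters E-proteins and so keeps NeuroD factors from DNA. Id2 was at 59.4, 57.8 and 56.3 CPM in Control and at 45.3, 47.9 and 42.0 CPM in CBP-ifKO, a difference of -0.36 (SE 0.073, edgeR adjusted p 0.00640). The E-protein gene Tcf4, named after its values were seen, did not pass (-0.16, adjusted p 0.107).

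Of the paralogues of the 9 genes, 4 of 13 were abundant enough to be tested and 1 passed, where 6.39% of all genes tested did. Bhlhe22, a helix-loop-helix repressor close to the NeuroD group, rose from 84.7, 77.4 and 74.9 CPM to 92.7, 107 and 104 CPM, a difference of 0.36 (SE 0.072, edgeR adjusted p 0.00602). The 9 untested paralogues included Neurod4, Neurog2, Mef2b and Eomes, each at no more than 1.37 CPM in any library. For the targets reported for TBR1, 1 of 9 passed, again near that background, namely Kcnq3, a subunit of the M-current potassium channel (-0.42, edgeR adjusted p 0.00608).

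**Figure D4:**
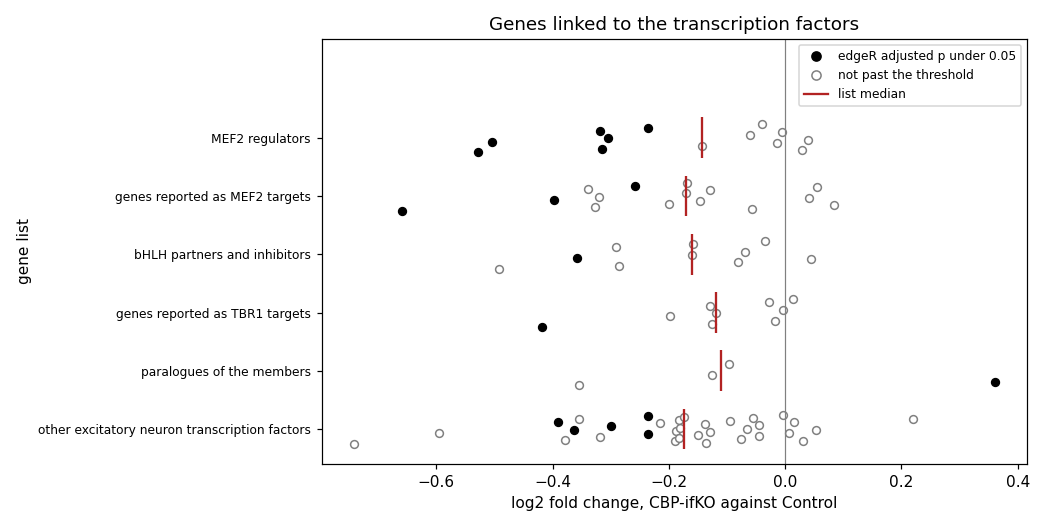
Log2 fold change (CBP-ifKO against Control) of each gene tested in 6 lists linked to the transcription factors; filled points passed the edgeR threshold and red lines are list medians. Filled points number 6 of 13 among the MEF2 regulators, and the filled point to the right of 0 is Bhlhe22 at 0.36.

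Other transcription factors of excitatory neurons gave a wider view of the same class. Of 33, 5 passed, all lower in CBP-ifKO (15.2%, against 6.39% of all genes tested), a median of -0.17 and 28 of 33 estimates below 0. They were Nfix, a nuclear factor I gene of hippocampal development (-0.36, edgeR adjusted p 0.0117), Nr3c2, the mineralocorticoid receptor (-0.24, 0.0191), Pou3f3 (-0.24, 0.0273), Etv1 (-0.30, 0.0291) and Pou3f1 (-0.39, 0.0393), a pair of POU factors and an ETS factor, the last of them named as the remaining gene of 5 after its values were seen. Prox1, the homeobox factor of dentate granule neurons, named after its values were seen, did not pass (0.22, adjusted p 0.110). Estimates below 0 were not particular to these factors. Marker lists of other cells had 10 of 10 (endothelial and mural, median -0.19), 8 of 10 (oligodendrocyte lineage, -0.14), 9 of 10 (astrocyte, -0.08) and 6 of 10 (microglia, -0.07). The medians of the 9 members, the MEF2 regulators and the reported MEF2 targets lay within the range of these lists as well.

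As the levels come from whole tissue, marker lists of the cell types and regions are given beside them, to be read against the 4.99% of all genes tested that fell and the 1.4% that rose. Of 8 CA1 markers, 6 fell past the threshold, with a summed level of 651 to 672 CPM in Control and 469 to 491 CPM in CBP-ifKO. By adjusted p the first were Wfs1 (-1.19, edgeR adjusted p 8.34e-07) and Fibcd1 (-0.63, 1.48e-05). The lists share genes: Pou3f1 is among the CA1 markers that fell, and Etv1 is the subiculum and cortex marker that fell. Both were already counted among the other transcription factors above, so these are not separate calls. Newborn neuron markers (3 of 5 tested, from 216 to 259 CPM down to 167 to 190 CPM), subiculum and cortex markers (1 of 11, from 434 to 451 CPM down to 366 to 418 CPM), CA3 markers (1 of 10, from 591 to 631 CPM down to 528 to 543 CPM) and interneuron markers (2 of 11, from 695 to 719 CPM down to 640 to 668 CPM) had summed levels that did not overlap either. The largest part of the newborn neuron sum was Tubb3 (mean 142 CPM in Control, 103 CPM in CBP-ifKO). Dcx, named after its values were seen, did not pass (-0.15, edgeR adjusted p 0.408), and Igfbpl1, Eomes, Neurog2 and Draxin were too low to be tested. Striatum markers (0 lower and 1 higher of 7, from 159 to 162 CPM to 135 to 149 CPM) and thalamus markers (0 of 7, from 144 to 152 CPM to 153 to 160 CPM) had summed levels without overlap as well. Single genes carried most of these sums, Pde10a for striatum (mean 117 CPM in Control, 99.4 CPM in CBP-ifKO) and Rora for thalamus (88.1 and 99.8 CPM). Although the thalamus sum was higher in CBP-ifKO, 5 of its 7 genes had estimates below 0 (median -0.20). Pan-excitatory markers (2 of 10 past the threshold, 8367 to 9264 and 8036 to 8782 CPM), dentate granule cell markers (3 lower and 1 higher of 10, 816 to 903 and 808 to 871 CPM), and astrocyte (0 of 10, 5536 to 6357 and 5671 to 5796 CPM), microglia (0 of 10), oligodendrocyte lineage (1 of 10), endothelial and mural (1 of 10) and choroid plexus (0 of 5) markers had summed levels that overlapped. No marker was at 0 in all libraries. The part of these lists in the values of Mef2d, Bcl11b, Tbr1 or Zbtb20 was not tested.

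The genes with the pattern most like that of Mef2d over the 6 libraries were sought by Pearson's r of log2(CPM + 1). These were Sept3 (r = 0.998), Plxna1 (r = 0.998) and Kif21b (r = 0.995), on chromosomes 15, 6 and 1, which encode a neuronal septin, a semaphorin co-receptor and a kinesin. Sept3 was at 378, 360 and 393 CPM in Control and at 325, 281 and 304 CPM in CBP-ifKO. The match is a description of 6 libraries in 2 groups, picked as the highest of all genes tested.

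**Figure D5:**
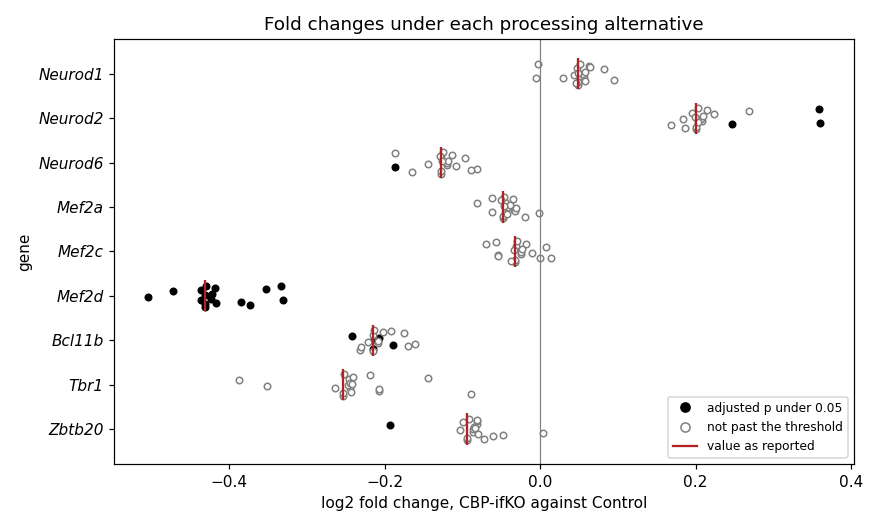
Log2 fold change of each of the 9 genes as reported (red line) and under 17 processing alternatives (points; filled where the adjusted p is under 0.05). Mef2d is filled throughout, between -0.50 and -0.33, and Neurod2 stays above 0 in each.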

How the data were processed

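Hippocampal RNA was sequenced (single-end) in 3 Control and 3 CBP-ifKO libraries, grouped and numbered by their titles. Per the submitters' processing notes and the methods, the authors trimmed reads with Trim Galore (0.6.4), aligned them with STAR (2.6.1) to GRCm38 (mm10), and counted reads of sufficient mapping quality over Ensembl exons with Rsubread. The deposited values are raw counts per gene, beside a column of gene lengths. Whether counting used strand is not given in the sources used here, so shared exon bases are stated for the members. GENCODE M21 (same build) named 55230 of 55471 genes (99.57%).

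Counts were tested with edgeR (4.0.16, R 4.3.3) by the quasi-likelihood F-test with TMM scaling, filterByExpr (minimum count 10, minimum total 15) with p-values adjusted by Benjamini-Hochberg across 17981 genes. The SE was taken as the size of the log2 fold change over the root of F. The fit was tested on simulated data. The common coefficient of variation between replicates was 6.81%, and counting error adds to it in genes of low count. P-values measure the spread between these pooled libraries.

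The members and gene lists were chosen with earlier results of these data known. The genes named are the 9 members, Crebbp, Ep300 and Esr1, up to 4 genes of each list with the smallest adjusted p past the threshold (otherwise the 2 most abundant), and the 3 genes most like each member called. The alternatives were DESeq2 (1.42.0), limma-voom (limma 3.58.1), robust dispersions, other scalings and filters, each library left out, the replicate block, and offsets for GC content and length (splines with 5 degrees of freedom). No protein sequence was used here. The values of 1 gene that the rule names are not reported here.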

Additional observations from a re-analysis of the deposited data

How the results depend on the processing

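Mef2d was lower and past the threshold under all 17 alternatives (log2 fold change -0.50 to -0.33, adjusted p at most 0.0343), and Neurod1, Mef2a, Mef2c and Tbr1 stayed outside it in each. Neurod2 passed with library totals only (0.25), with GC and length offsets (0.36) and with those offsets and the replicate block (0.36), 1 member higher in each case. Bcl11b passed with robust dispersions (-0.22), no filter on low counts (-0.21) and the replicate block (-0.21), 2 members lower in each case. With the block and offsets, Bcl11b (-0.19) and Neurod6 (-0.19) joined Mef2d, for 3 lower, and 1799 genes passed in all. Estimates near 0 changed sign: Neurod1 with the offsets (-0.0032) and with block and offsets (-0.0046), and Mef2c with library totals only (0.014), with Control replicate 2 left out (0.0082) and with CBP-ifKO replicate 3 left out (0.00059). The offsets, which took GC content and gene length together, moved the estimates of Neurod2 and Mef2d upward and that of Neurod6 downward. The cause of these changes and of the others was not tested.

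Leaving out 1 library at a time gave 498 to 1326 genes past the threshold and 1 to 3 members lower, the 3 without Control replicate 2. Ranges were -0.24 to -0.16 for Bcl11b, -0.19 to 0.0033 for Zbtb20 (reversed without Control replicate 1), -0.069 to 0.0082 for Mef2c, 5 to 18 genes for the 6 related lists together (17 as reported) and 2 to 6 for the MEF2 regulators. The related lists gave 11 with library totals only and 26 with block and offsets. Share differences ranged from 2.72 to 4.35 points for Neurod2, -4.78 to -3.10 for Neurod6 and -6.73 to -4.23 for Mef2d, and with the longest transcript were -3.37 for Mef2d and 1.77 for Mef2a.

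Libraries of the same number shared little deviation from their group means (r = 0.0769, 0.0369 and 0.00216), and 3 of 6 libraries correlated best with their own number, so the numbers were not taken as pairs. With the replicate block 1210 genes passed. The low counts came without Control replicate 3 (546) and without replicates 2 (498) and 3 (526) of CBP-ifKO.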
